A study of Mus musculus with 6 samples.

Results

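The translation initiation factor genes were taken as every row of the count table whose symbol starts with Eif1 to Eif6, without the eIF2 kinases (symbols starting with Eif2ak). This gave 55 of the 23420 genes in the table. Of these, 51 code for initiation factors, their inhibitors and factors that carry an eIF name. The other 4 (Eif2c1, Eif2c2, Eif2c3 and Eif2c4) are older symbols of the Argonaute genes Ago1, Ago2, Ago3 and Ago4, which load small RNAs and are not initiation factors, so they were kept in the set but described apart. Reads were found for 52 of the 55 genes, and all 52 passed the filter on low counts. Eif2s3y, Eif3j1 and Eif4e1b were listed at 0 reads in each library.

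Mesenchymal stromal cells (MSCs) from the bone marrow of female C57BL/6 mice were compared with and without the subunits of the thymoproteasome, a proteasome form of the thymic cortex. Both groups had been transduced at passage 5 with the AP2 retroviral vector, which carries eGFP as a marker. Ctl MSC (3 libraries) received the vector without subunits, and MSC-TPr (3 libraries) received the vector with the genes Psmb9 (β1i), Psmb10 (β2i) and Psmb11 (β5t). The comparison asks how the transcriptome of the cells differs when these subunits are added. The labels do not say whether the 3 libraries of a group came from separate cultures or transductions, so the p-values measure the spread between these libraries, which may be technical. The number of donor mice behind each group is not given in the sources used here.

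Initiation is the step at which ribosomes are loaded on an mRNA. eIF2, recharged with GTP by its exchange factor eIF2B, brings the initiator tRNA to the small ribosomal subunit together with eIF1, eIF1A, eIF3 and eIF5, while eIF4E binds the cap, eIF4G holds the complex together and the helicase eIF4A unwinds the 5′ end. The 4E-BP proteins compete with eIF4G for eIF4E, and phosphorylation of eIF2 in stressed cells blocks eIF2B, which makes both points the main switches of protein synthesis.

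Several initiation factor genes are known targets of MYC, which binds the E-box CACGTG, so the promoters were searched for this element. RefSeq promoter windows (GRCm38.p6, from 250 bases before to 50 bases after a start site) were given for 42 of the 55 genes. The palindrome CACGTG, which reads the same on both strands, was present in 10 of these 42 (23.8%), compared with 8.09% of the 27025 genes that have a window. The 10 genes were Eif1b, Eif3a, Eif3f, Eif3k, Eif4a1, Eif4e, Eif4g1, Eif4h, Eif5a and Eif5a2. The NRF1 motif GCGCATGCGC was present in 1 of the 42 (Eif3k) and in 1.07% of all genes. The ETS core CCGGAAG, searched on both strands and chosen after the sequences had been read, was present in 16 of the 42 (38.1%) and in 9.93% of all genes. The median GC content was 64.7% in the windows of initiation factor genes and 52.7% in all windows, and the shares were not matched for it. Among genes with a window, 10 had every MSC-TPr library above every Ctl MSC library, and 30 tested genes had overlapping groups. The E-box was present in 2 of these 10 and 8 of these 30, and the ETS core in 6 and 10. Stretches of 60 bases around the E-box are given for Eif5a and Eif4a1, the 2 genes with an E-box and no overlap. They are also given for the scaffold gene Eif4g1, whose groups overlapped, and for Eif3f, whose level differed between libraries of one group. Capitals mark the E-box, and each stretch is written 5′ to 3′ on the strand of its gene. The first base of the E-box lay at −74, −189, −54 and −68 from a RefSeq start site, in the order shown. The stretch of Eif4a1 (chr11:69672580-69672639, minus strand) and that of Eif3f (chr7:108934320-108934379, plus strand) lie upstream of the annotated genes, and those of Eif5a (chr11:69921428-69921487, minus strand) and Eif4g1 (chr16:20672646-20672705, plus strand) lie in introns, before start sites inside the gene.
Eif5a: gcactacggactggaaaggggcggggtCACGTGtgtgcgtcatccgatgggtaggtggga
Eif4a1: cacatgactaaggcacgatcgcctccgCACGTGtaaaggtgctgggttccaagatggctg
Eif4g1: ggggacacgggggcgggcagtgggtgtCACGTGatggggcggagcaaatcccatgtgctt
Eif3f: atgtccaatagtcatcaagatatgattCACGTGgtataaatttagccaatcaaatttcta

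The reads counted on genes numbered 16158756 to 22158887 in a library, and 3 reads, taken as the smallest detectable amount, corresponded to 0.139 to 0.181 CPM (counts scaled to the size of the library). This limit and the shares of reads cover counting error only. The transduced genes were not higher in every library labelled MSC-TPr: Psmb10 had 460, 165 and 152 reads in Ctl MSC 1, 2 and 3, against 162, 293 and 328 reads in MSC-TPr 1, 2 and 3. Psmb9 had 56, 15 and 15 reads in Ctl MSC 1, 2 and 3, against 10, 21 and 26 reads in MSC-TPr 1, 2 and 3. Psmb11 had 1 to 6 reads in each library, so every direction below is one between library labels. The libraries also fell into 2 classes that cross the labels. A list of 24 cell division genes had a mean log2 CPM of 6.27 to 6.40 in Ctl MSC 1, MSC-TPr 2 and MSC-TPr 3 and 2.98 to 3.04 in Ctl MSC 2, Ctl MSC 3 and MSC-TPr 1, and the first principal component (58.5% of the variance) separated the same libraries. Of the mesenchymal markers, Cd44 (142 to 536 CPM) and Eng (142 to 204 CPM) were present in each library, while Thy1 had 1 read in 1 library. The summed level of 8 mesenchymal markers was 1473 to 5086 CPM in Ctl MSC and 1015 to 8329 CPM in MSC-TPr. Col1a1 made up most of this sum in Ctl MSC 1, MSC-TPr 2 and MSC-TPr 3 (3250, 3052 and 6916 CPM). Nt5e was lower in every MSC-TPr library (2.66 to 5.24 CPM) than in every Ctl MSC library (11.4 to 20.2 CPM). The groups of Cd44, Eng, Ly6a, Pdgfra, Pdgfrb and Col1a1 overlapped. The haematopoietic list (5 genes) summed to 2.84 to 10.2 CPM in Ctl MSC and 1.90 to 14.2 CPM in MSC-TPr, with Ptprc at 0 reads in 5 of the libraries, and the endothelial list (3 genes) to 0.725 to 2.92 and 1.49 to 2.99 CPM. In RNA from whole cultures, fewer cells of a type and less RNA per cell cannot be told apart.

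The levels of the detected genes, with the Argonaute genes included, spanned more than 3 orders of magnitude when scaled to the length of their exons. Over the 6 libraries, Eif1, which guards the choice of the start codon, had the highest mean level at 471 CPM per kilobase of exon. It was followed by Eif5a at 454 and the helicase gene Eif4a1 at 337 CPM per kilobase, and these 3 genes exchanged places between libraries. In eIF3 the highest level was that of Eif3h (278 CPM per kilobase), in eIF4G that of Eif4g2 (182.5 CPM per kilobase), in eIF2 that of Eif2s3x (169 CPM per kilobase) and in the 4E-BPs that of Eif4ebp1 (146 CPM per kilobase). The eIF2B genes were lower, from 8.27 CPM per kilobase for Eif2b3 to 36.1 for Eif2b5, as was Eif4e at 34.7 CPM per kilobase. The lowest detected genes were Eif3j2 at 0.635 and the Argonaute gene Eif2c4 at 0.286 CPM per kilobase.

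**Figure D1:**
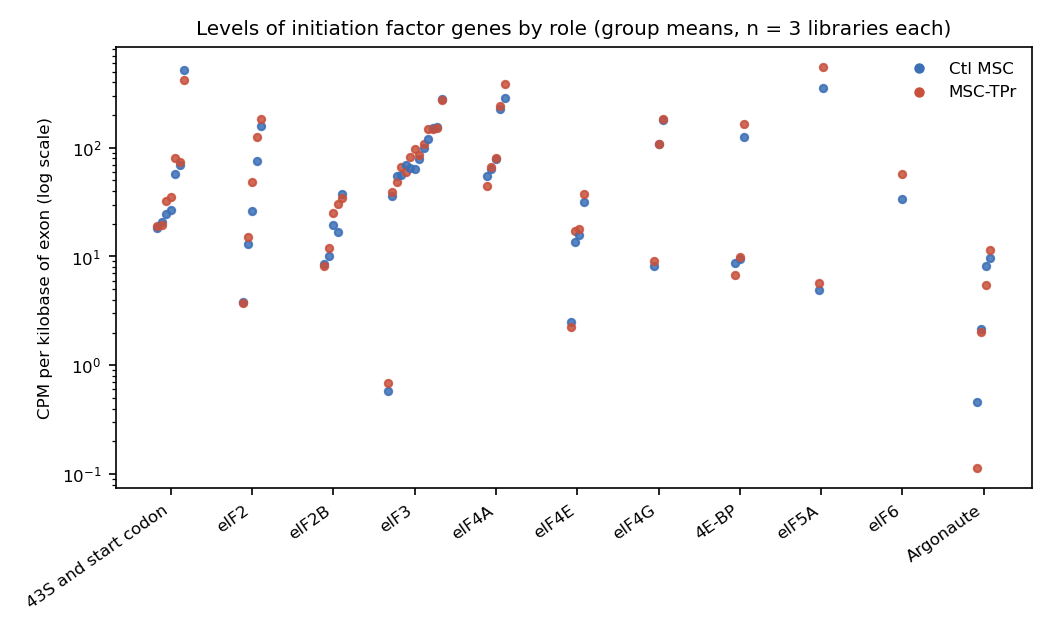
Mean level of each detected initiation factor gene in CPM per kilobase of exon (log scale), by role, in Ctl MSC (blue) and MSC-TPr (red), n = 3 libraries each. Eif1, Eif5a and Eif4a1 lie at the top, at 337 to 471 CPM per kilobase over all libraries, and the 2 colours lie close together for most genes.

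Against these differences in level, the difference between Ctl MSC and MSC-TPr was small. With edgeR's quasi-likelihood test over all genes, 0 of the 52 tested genes were called (an adjusted p below 0.05 with a fold change of 0.5 or more on the log2 scale, in either direction), where 0.426% of all 11974 genes tested were called, 0.0251% higher and 0.401% lower. The smallest edgeR adjusted p was 0.140, for Eif6. At an unadjusted p under 0.05, 8 genes (15.4%) were higher and 0 lower in MSC-TPr, compared with 15.0% of all genes, 6.81% higher and 8.23% lower. With 1 library left out, the count of these genes moved in the same direction as that of all genes, except without MSC-TPr 3. There it rose to 10 (19.2%), while the share of all genes fell to 12.7%. Without MSC-TPr 1 it was 9 (17.3%), where 20.6% of all genes were under 0.05. It was 5 (9.62%) without Ctl MSC 2, without Ctl MSC 3 or without MSC-TPr 2, where 7.63%, 7.60% and 9.56% of all genes were under 0.05, and 12 (23.1%) without Ctl MSC 1, where 23.3% of all genes were. Of the 52 genes, 36 had a higher and 16 a lower value in MSC-TPr, with a median log2 fold change of 0.12, compared with 0.01 over all genes, and the quartiles of the values were −0.04 and 0.32. The sign of 21 of the 52 genes turned in at least 1 of the alternative fits. The groups of these 21 genes overlapped, and none had a log2 fold change over 0.25 in size. DESeq2 called 4 genes, all higher (Eif6, Eif2s1, Eif2b2 and Eif2s2, DESeq2 adjusted p = 0.0127 to 0.0458), where it called 5.28% of all genes, 1.89% higher and 3.39% lower.

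**Figure D2:**
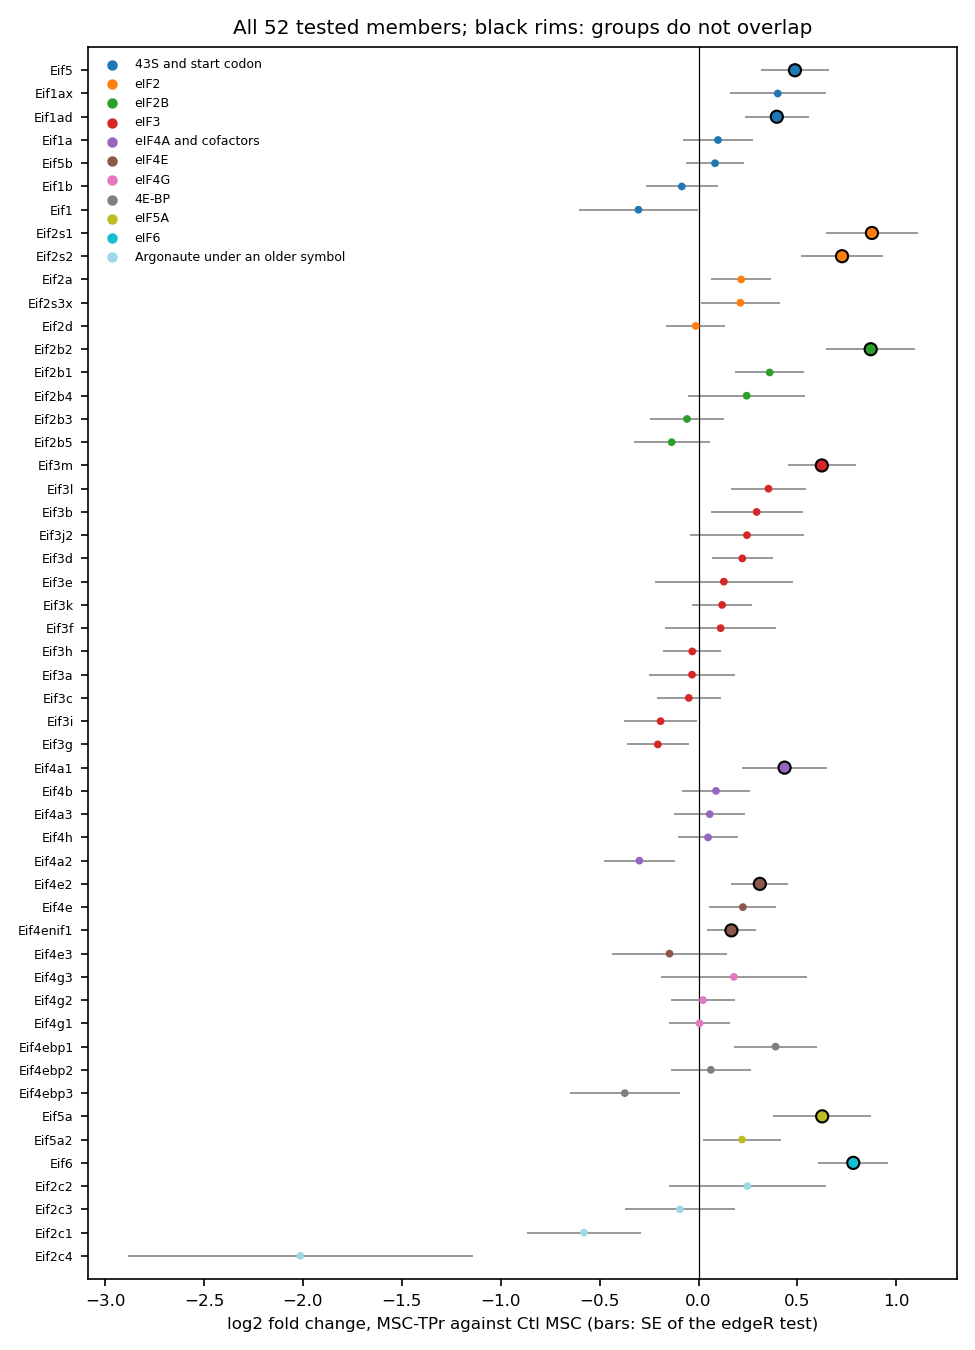
Log2 fold change (MSC-TPr against Ctl MSC, edgeR, 3 libraries each) of the 52 tested genes, grouped by role, with bars for the standard error of the test. The 11 points with black rims, for which every MSC-TPr library lay above every Ctl MSC library, lie between 0.17 and 0.88, and no gene had the reverse order.

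In 11 of the 52 genes (21.2%) every MSC-TPr library lay above every Ctl MSC library, and in 0 of 52 the order was reversed. Among all genes tested, 10.6% lay above and 12.1% below in this way. The 11 genes were Eif2s1, Eif2b2, Eif6, Eif2s2, Eif5a, Eif3m, Eif5, Eif4a1, Eif1ad, Eif4e2 and Eif4enif1. They came from 8 of the role groups, with no Argonaute, 4E-BP or eIF4G gene among them.

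**Figure D3:**
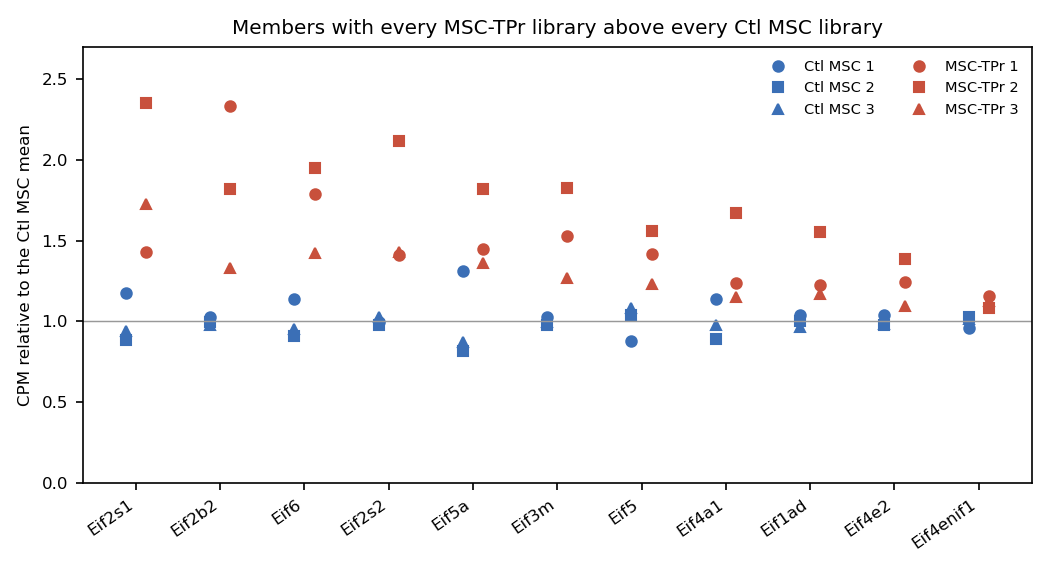
CPM of each library divided by the mean of the Ctl MSC libraries for the 11 genes whose groups did not overlap; symbols mark the library number. MSC-TPr 2 was the highest library in 9 of them, and the gap between the groups was widest in Eif2s2, where the Ctl MSC libraries lay between 496 and 521 CPM and the MSC-TPr libraries between 717 and 1074 CPM.

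The order of the libraries also varied with the chromosome of a gene. The other tested genes of chromosome 12 had a median log2 fold change of 0.37 and those of chromosome 2 one of 0.26, the highest of the 20 chromosomes examined, and those of chromosomes 16 and 4 had the lowest, −0.24 and −0.23. On chromosome 12, 77.5% of the other 404 genes had a higher value in MSC-TPr and for 33.4% the MSC-TPr libraries all lay above. On chromosome 2 these shares were 73.9% and 24.7% of 943 genes. The shift was present in each library: the median deviation of chromosome 12 genes from their mean over the 6 libraries was −0.20, −0.13 and −0.14 (log2) in Ctl MSC 1, 2 and 3, against 0.21, 0.16 and 0.16 in MSC-TPr 1, 2 and 3. All 6 detected initiation factor genes of these chromosomes (Eif2b2, Eif2s1 and Eif5 on 12, Eif2s2, Eif3m and Eif6 on 2) were among the 11 genes without overlap. With the median of its own chromosome subtracted, their log2 fold changes were 0.50, 0.51, 0.12, 0.47, 0.37 and 0.53 in the same order. Of the 46 genes on other chromosomes, 30 had a higher and 16 a lower value, with a median log2 fold change of 0.09. In 5 of them (10.9%) every MSC-TPr library lay above. The share of all genes, 10.6%, includes chromosomes 12 and 2, where it was higher, so the 2 shares do not cover like sets. Over all 52 genes, 41 lay above the median of their chromosome, and the median difference from it was 0.18. The part of the chromosome-wide shift in the values of these genes was not tested. This comparison with chromosomes was added after the values had been seen.

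**Figure D4:**
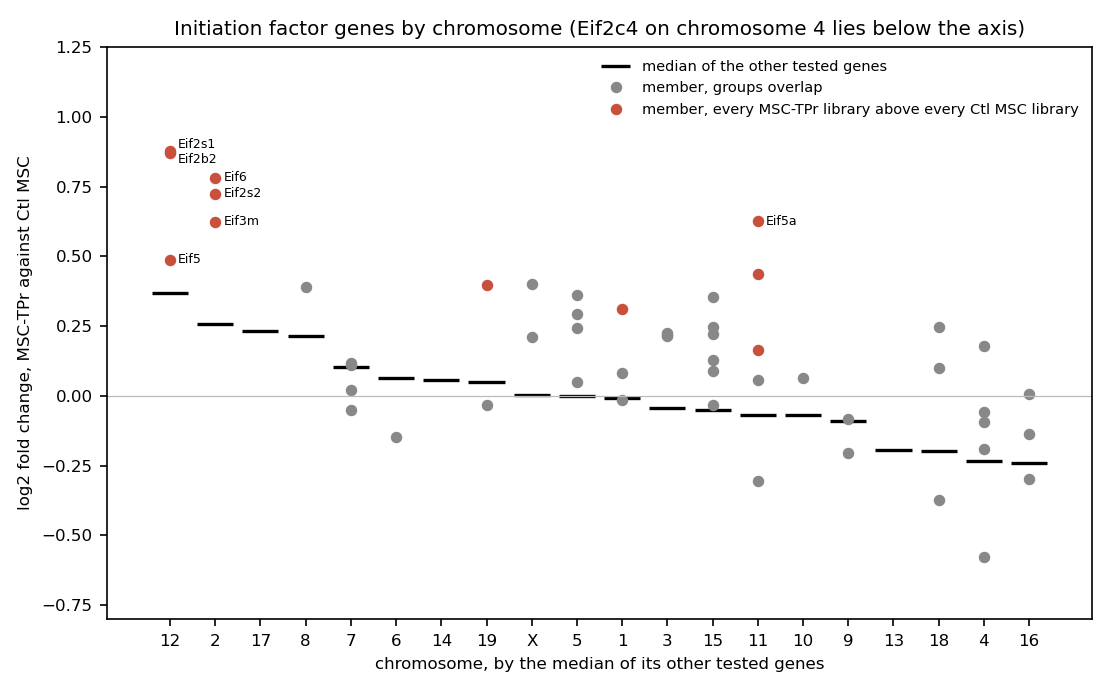
Log2 fold change (MSC-TPr against Ctl MSC, edgeR) of each tested initiation factor gene by chromosome, with a black line at the median of the other tested genes there. Red points are genes with every MSC-TPr library above every Ctl MSC library, and chromosomes 12 and 2, which hold 6 of the 11, have the highest medians (0.37 and 0.26).

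Among the genes for the 3 subunits of eIF2, those for α and β had every MSC-TPr library above every Ctl MSC library. Eif2s1 (chr12:78861819-78887010, mm10), which codes for the α subunit that stress kinases phosphorylate, measured 154, 115 and 123 CPM in Ctl MSC 1, 2 and 3, against 187, 308 and 226 CPM in MSC-TPr 1, 2 and 3. MSC-TPr 2 stood highest, and MSC-TPr 1 lay only a little above Ctl MSC 1, without overlap. Its log2 fold change was 0.88 (SE 0.230, adjusted p = 0.183, edgeR). Eif2s2 (chr2:154871410-154892935), for the β subunit, measured 505, 496 and 521 CPM in Ctl MSC, against 717, 1074 and 726 CPM in MSC-TPr. The Ctl MSC libraries were close to each other, and MSC-TPr 2 was the highest by a wide margin, with a log2 fold change of 0.73 (SE 0.207, adjusted p = 0.201, edgeR). Eif2s3x (chrX:94188707-94212862), for the γ subunit, measured 721, 530.1 and 544 CPM against 601, 801 and 677 CPM. These groups overlapped through the high value of Ctl MSC 1 (log2 fold change 0.21, SE 0.201, adjusted p = 0.671, edgeR), and 33.7% of the 100-base words of its exons are found in another gene, Gm2223, so its reads may be split. Its Y-linked copy Eif2s3y had 0 reads in each library, which allows up to 0.139 to 0.181 CPM, and the donor mice were female. Summed over the role group, the eIF2 genes reached 1489, 1246 and 1299 CPM in Ctl MSC, against 1631, 2312 and 1735 CPM in MSC-TPr. Eif2a and Eif2d, which deliver initiator tRNA without eIF2, had log2 fold changes of 0.22 and −0.01.

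In eIF2B, the β subunit stood apart from the other subunits. Eif2b2 (chr12:85219481-85226628) measured 32.3, 31.4 and 30.7 CPM in Ctl MSC, against 73.6, 57.3 and 41.8 CPM in MSC-TPr. Here MSC-TPr 1 was the highest library and the Ctl MSC libraries hardly differed. The log2 fold change was 0.87 (SE 0.226, adjusted p = 0.181, edgeR), and DESeq2 gave an adjusted p of 0.0346. The catalytic ε subunit gene Eif2b5 (chr16:20498817-20509323) measured 111, 89.4 and 93.8 CPM against 70.4, 103 and 94.3 CPM, with overlapping groups and a log2 fold change of −0.14 (SE 0.193, adjusted p = 0.791, edgeR), which became 0.01 without MSC-TPr 1. Eif2b1, Eif2b4 and Eif2b3 had log2 fold changes of 0.36, 0.24 and −0.06. Eif2b4 was higher in the libraries of high cell division (37.6 CPM in Ctl MSC 1, 33.4 in MSC-TPr 2 and 33.9 in MSC-TPr 3) than in the others (18.5 to 26.0 CPM).

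Of the factors that scan for and accept the start codon, Eif5 (chr12:111538016-111546752), the protein that triggers GTP hydrolysis by eIF2, measured 345, 407 and 423 CPM in Ctl MSC, against 554, 612 and 482 CPM in MSC-TPr. The lowest MSC-TPr library lay above the highest Ctl MSC library, with a log2 fold change of 0.49 (SE 0.170, adjusted p = 0.263, edgeR). Eif1ad (chr19:5366741-5371526), a relative of eIF1A that acts in the maturation of the small subunit, measured 77.9, 75.3 and 72.5 CPM against 92.1, 117 and 87.7 CPM. The groups did not overlap (log2 fold change 0.40, SE 0.161, adjusted p = 0.320, edgeR), and 428 bases of its exons overlap Banf1 on the opposite strand, whose reads cannot be told apart unless the counting used the strand. Eif1 (chr11:100319885-100322096) measured 734, 1222 and 1318 CPM in Ctl MSC, against 1087, 919 and 645 CPM in MSC-TPr. It was high in the libraries of low cell division and lowest in MSC-TPr 3 and Ctl MSC 1 (log2 fold change −0.30, SE 0.300, adjusted p = 0.686, edgeR). It made up 94.6% to 96.7% of the summed level per kilobase of Eif1 and its paralogue Eif1b. Eif1ax had a log2 fold change of 0.40, Eif1a of 0.10, Eif5b of 0.08 and Eif1b of −0.09.

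The 13 detected subunits of eIF3, the largest initiation factor, were divided: 8 had a higher and 5 a lower value in MSC-TPr. Only Eif3m (chr2:104999656-105017080) lay without overlap, with 168, 161 and 164 CPM in Ctl MSC, against 251, 299.98 and 208 CPM in MSC-TPr. The 3 Ctl MSC libraries were nearly equal and each MSC-TPr library was higher, with a log2 fold change of 0.62 (SE 0.173, adjusted p = 0.194, edgeR). Eif3h (chr15:51786558-51865523) measured 429, 443 and 487 CPM against 451, 469 and 408 CPM and did not separate the groups (log2 fold change −0.03, SE 0.147, adjusted p = 0.939, edgeR). The core subunit genes Eif3a, Eif3b and Eif3c had log2 fold changes of −0.03, 0.29 and −0.05, and the remaining subunits lay between −0.21 (Eif3g) and 0.35 (Eif3l). Eif3e had the widest spread of them, with 918, 518 and 553 CPM in Ctl MSC, against 448, 953 and 772 CPM in MSC-TPr, and followed the cell division class of the library. Its log2 fold change of 0.13 turned to −0.022 without Ctl MSC 2 and to −0.12 without MSC-TPr 2. Eif3f ran the other way, with 164, 249.5 and 272 CPM against 329, 215 and 197 CPM, and its log2 fold change of 0.11 turned to −0.076 without Ctl MSC 1 and to −0.15 without MSC-TPr 1. The summed eIF3 level was 4716 to 4801 CPM in Ctl MSC, against 4599, 5678 and 4872 CPM in MSC-TPr. Eif3j1 was listed at 0 reads and its near-identical copy Eif3j2 at 1.27 to 1.83 CPM. As 84.0% of the 100-base words of Eif3j2 are found in other genes, chiefly Eif3j1, the level of the j subunit is uncertain. For Eif3j1 itself this share was 44.15%, and the cause of its 0 reads was not tested. Eif3d shares 32.0% of such words with Gm17638 on the opposite strand.

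The helicase paralogues of eIF4A had fold changes of opposite sign. Eif4a1 (chr11:69666936-69672423) measured 1412, 1106 and 1213 CPM in Ctl MSC, against 1540.2, 2076 and 1428 CPM in MSC-TPr, a log2 fold change of 0.43 (SE 0.213, adjusted p = 0.398, edgeR). MSC-TPr 3 lay just above Ctl MSC 1. Eif4a2 (chr16:23107444-23114136) measured 269, 315 and 290.1 CPM against 271, 249.3 and 190.3 CPM, a log2 fold change of −0.30 (SE 0.181, adjusted p = 0.492, edgeR), and its groups overlapped through MSC-TPr 1. Per kilobase, the level of Eif4a2 relative to Eif4a1 was 0.155, 0.231 and 0.194 in Ctl MSC, against 0.143, 0.0975 and 0.108 in MSC-TPr. Every MSC-TPr library had a lower ratio than every Ctl MSC library. The mean difference was −0.73 on the log2 scale (exact two-sided permutation test, p = 0.1, the smallest p that 3 against 3 libraries allow). It was −0.60 to −0.89 when 1 library was left out. The other genes of chromosome 16, where Eif4a2 lies, had a median log2 fold change of −0.24 and those of chromosome 11, where Eif4a1 lies, one of −0.07, and the part of this in the ratio was not tested. Of the exons of Eif4a1, 22.6% of 100-base words are found in other genes, a pseudogene (Eif4a-ps4) and small RNA genes among them. Eif4a3, a core protein of the exon junction complex, and the helicase cofactors Eif4b and Eif4h had log2 fold changes of 0.06, 0.09 and 0.05.

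At the cap, Eif4e (chr3:138526179-138559696) measured 218, 176 and 182 CPM in Ctl MSC, against 228, 252 and 193 CPM in MSC-TPr. The groups overlapped (log2 fold change 0.22, SE 0.169, adjusted p = 0.580, edgeR). Eif4e2 (chr1:87213914-87240488), whose protein binds caps without recruiting eIF4G, measured 107, 100.3 and 101 CPM against 128, 142 and 112 CPM. It was without overlap but with a small log2 fold change of 0.31 (SE 0.145, adjusted p = 0.378, edgeR). Eif4enif1, which carries eIF4E into the nucleus, also lay without overlap, with a log2 fold change of 0.17 (SE 0.125, adjusted p = 0.580, edgeR), and Eif4e3 gave −0.15. Eif4e made up 64.2% to 68.7% of the summed level per kilobase of Eif4e, Eif4e2 and Eif4e3. The oocyte form Eif4e1b had 0 reads.

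The inhibitors of eIF4E were led by Eif4ebp1 (chr8:27260329-27276674), which made up 86.6% to 93.4% of the summed level per kilobase of the 3 genes. It measured 226, 294 and 315 CPM in Ctl MSC, against 395, 410 and 288 CPM in MSC-TPr. MSC-TPr 3 lay among the Ctl MSC libraries (log2 fold change 0.39, SE 0.211, adjusted p = 0.441, edgeR). Eif4ebp2 (chr10:61428491-61452661) measured 46.8, 58.8 and 60.2 CPM against 69.6, 46.6 and 56.9 CPM, a log2 fold change of 0.06 (SE 0.201, adjusted p = 0.910, edgeR) that became −0.04 without Ctl MSC 1 and −0.09 without MSC-TPr 1. Eif4ebp3 (chr18:36664060-36665917) measured 5.20, 7.90 and 6.51 CPM against 5.54, 3.85 and 5.75 CPM, with a log2 fold change of −0.37 (SE 0.280, adjusted p = 0.576, edgeR). It shares 501 bases of exon with a readthrough gene, so its reads are uncertain. The summed 4E-BP level was 3.25, 5.27 and 5.37 times the level of Eif4e per kilobase in Ctl MSC, against 5.27, 4.76 and 4.62 times in MSC-TPr. Ctl MSC 1 was low and the other libraries lay close together. The difference of the mean log2 ratio was 0.11 (exact two-sided permutation test, p = 0.9, smallest possible 0.1), and it turned to −0.13 without Ctl MSC 1.

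The scaffold genes Eif4g1 and Eif4g2 had fold changes close to 0. Eif4g1 (chr16:20668313-20692884) measured 765, 813 and 805 CPM in Ctl MSC, against 799.9, 722 and 868 CPM in MSC-TPr (log2 fold change 0.00, SE 0.154, adjusted p = 0.992, edgeR). Eif4g2 (chr7:111067750-111083030), a relative that lacks the eIF4E binding site, measured 1658, 1909 and 1956 CPM against 1934, 1856 and 1819.7 CPM (log2 fold change 0.02, SE 0.163, adjusted p = 0.963, edgeR). The groups of both genes overlapped over almost their whole range, and the sign of their fold changes turned without Ctl MSC 1 (−0.02 and −0.04). The paralogue Eif4g3 was low in Ctl MSC 1 (46.3 CPM) and MSC-TPr 2 (75.3 CPM) and at 107 to 122 CPM in the others, with a log2 fold change of 0.18 that turned to −0.13 without Ctl MSC 1.

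Eif5a (chr11:69916714-69921958) codes for eIF5A, which carries the amino acid hypusine and helps stalled ribosomes to form peptide bonds. It measured 1116, 695 and 737 CPM in Ctl MSC, against 1228, 1547 and 1154.0 CPM in MSC-TPr. Ctl MSC 1 was close to MSC-TPr 3, and the groups did not overlap (log2 fold change 0.63, SE 0.247, adjusted p = 0.307, edgeR). The genes of its chromosome had a median of −0.07, and among the 11 genes without overlap its difference from its chromosome, 0.69, was the largest. Eif5a2 (chr3:28781276-28798846) measured 27.4, 22.8 and 23.6 CPM against 33.3, 23.5 and 29.1 CPM, with overlap and a log2 fold change of 0.22 (SE 0.196, adjusted p = 0.648, edgeR). Eif5a made up 98.5% to 99.3% of their summed level per kilobase in each library. Eif6 (chr2:155819832-155826925), whose protein keeps the large ribosomal subunit from joining too early, measured 103, 82.3 and 86.3 CPM in Ctl MSC, against 162, 176 and 129 CPM in MSC-TPr. Each MSC-TPr library was above Ctl MSC 1, the highest control. The log2 fold change was 0.78 (SE 0.178, adjusted p = 0.140, edgeR, DESeq2 adjusted p = 0.0127) and ranged from 0.69 to 0.91 when 1 library was left out.

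Of the 4 Argonaute genes, 1 had a higher and 3 a lower value in MSC-TPr. In all 4 the 3 highest libraries were Ctl MSC 2, Ctl MSC 3 and MSC-TPr 1, those of low cell division, an order also found in 6 of the other 48 tested genes and in 21.7% of all genes. Eif2c2 (Ago2, the cleaving Argonaute, chr15:73095844-73184935) measured 78.4, 168 and 165 CPM in Ctl MSC, against 240, 109 and 139 CPM in MSC-TPr. Its log2 fold change of 0.25 (SE 0.397, adjusted p = 0.818, edgeR) turned to −0.03 without Ctl MSC 1 and to −0.14 without MSC-TPr 1. Eif2c4 (Ago4, chr4:126489541-126533472) had 12, 83 and 80 reads in Ctl MSC, against 25, 3 and 17 reads in MSC-TPr. The high values were those of Ctl MSC 2 and 3, and the groups overlapped (log2 fold change −2.01, SE 0.872, adjusted p = 0.341, edgeR). Eif2c1 and Eif2c3, its neighbours on chromosome 4, had log2 fold changes of −0.58 and −0.09, the latter 0.13 with the cell division covariate.

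Among the 48 tested genes other than the Argonautes, the 3 highest libraries were Ctl MSC 1, MSC-TPr 2 and MSC-TPr 3, those of high cell division, in 10 (20.8%). They were the 3 of low cell division in 6 (12.5%). Over all genes tested these shares were 23.0% and 21.7%. The summed level of these genes was 15904 to 16369 CPM in Ctl MSC and 16852 to 20050 CPM in MSC-TPr. In this sum the 3 Ctl MSC libraries were close to each other although they differ in cell division. Single genes differed among these libraries in both directions. Eif1 measured 734, 1222 and 1318 CPM in Ctl MSC 1, 2 and 3, and Eif5a 1116, 695 and 737 CPM.

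**Figure D5:**
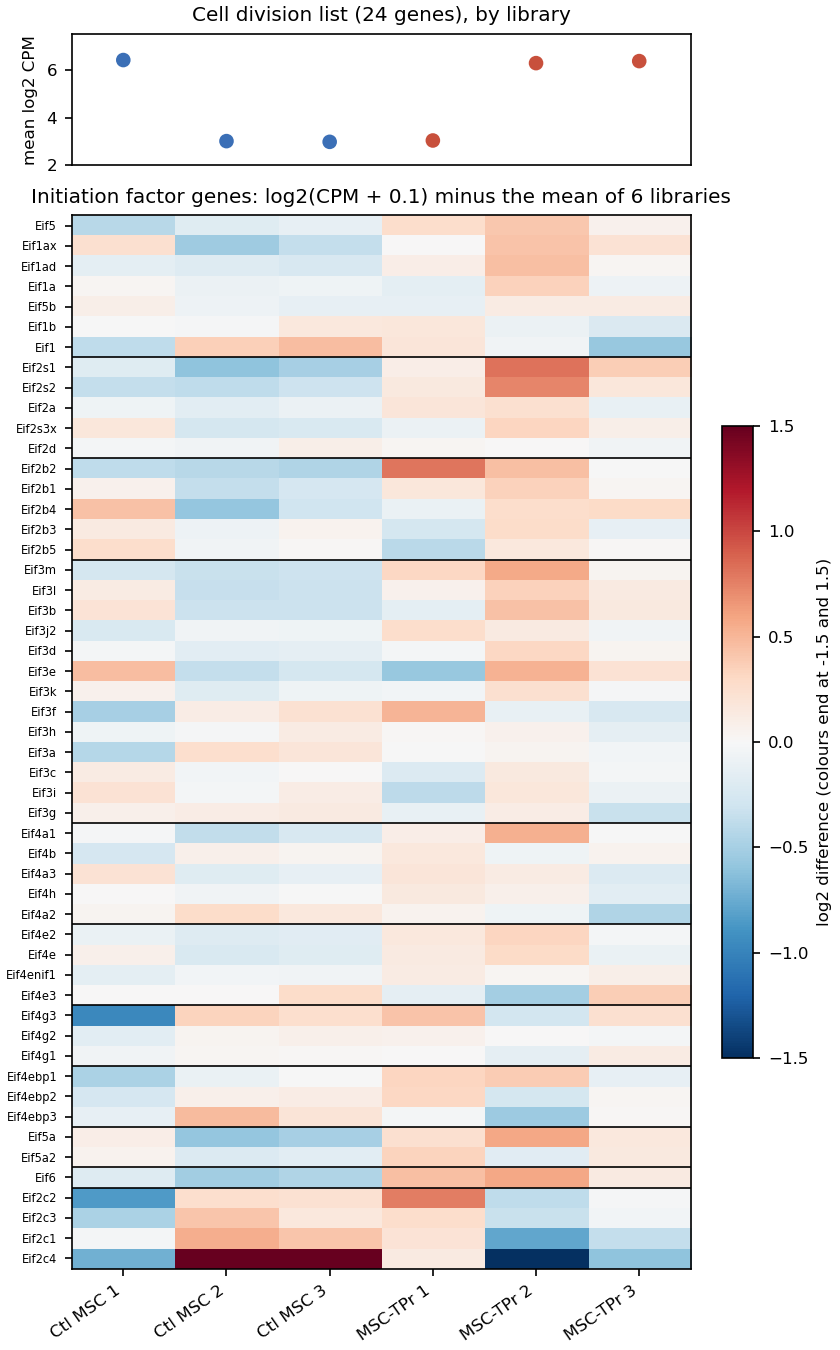
Deviation of log2(CPM + 0.1) from the mean of the 6 libraries for the 52 tested genes, ordered by role (black lines) and by fold change within a role, below a panel with the 24 cell division genes (mean log2 CPM). The cell division genes lie at 6.27 to 6.40 in Ctl MSC 1, MSC-TPr 2 and MSC-TPr 3 and at 2.98 to 3.04 in the others, while 90.7% of the values of the initiation factor genes deviate by less than 0.5 on the log2 scale.

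The calls depended on how this split was handled. With both libraries numbered 1 left out, edgeR called 12 genes higher (Eif1ax, Eif2b1, Eif2b2, Eif2b4, Eif2s1, Eif2s2, Eif3b, Eif3e, Eif3l, Eif3m, Eif5a and Eif6) and 3 lower (Eif1, Eif2c1 and Eif2c4). This was 15 of 52 (28.8%), compared with 40.0% of all genes called in the same comparison, 20.6% higher and 19.4% lower. With DESeq2 on these 4 libraries, 13 genes were called higher and 3 lower, compared with 18.6% and 16.6% of all genes (35.2% in all). In these 4 libraries both MSC-TPr libraries are of high and both Ctl MSC libraries of low cell division, so label and cell division cannot be told apart there. With the mean level of the cell division genes as a covariate over all 6 libraries, 6 genes were called higher (Eif2b2, Eif2c2, Eif2s1, Eif3m, Eif5 and Eif6), compared with 12.1% of all genes called, 4.74% higher and 7.35% lower. Eif2b2, Eif2s1, Eif3m and Eif6 were called by edgeR both with the libraries numbered 1 left out and with the covariate, and all of them lie on chromosomes 12 and 2. The share of all genes called in both was not counted, so these joint calls have no background to be set against.

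Other genes of translation were taken from a list of 37, of which 36 passed the filter. With edgeR 0 were called, 19 had a higher and 17 a lower value, and the median log2 fold change was 0.03. At an unadjusted p under 0.05 (edgeR), 4 (11.1%) were higher and 0 lower, compared with 15.0% of all genes, 6.81% higher and 8.23% lower. The groups did not overlap in 7, with MSC-TPr above in 4 (11.1%; Eif2ak4, Dhps, Eef1g and Paip2b) and below in 3 (8.33%; Mtor, Rps6kb1 and Mknk2), compared with 10.6% and 12.1% of all genes. Eif2ak4, the eIF2 kinase that senses missing amino acids, measured 35.3, 35.6 and 34.7 CPM in Ctl MSC, against 45.8, 48.9 and 55.6 CPM in MSC-TPr. The groups did not overlap (log2 fold change 0.51, SE 0.146, adjusted p = 0.202, edgeR), and the gene lies on chromosome 2. Dhps, the first enzyme of hypusine formation on eIF5A, measured 28.9, 25.3 and 28.2 CPM against 34.4, 43.5 and 35.6 CPM, again without overlap (log2 fold change 0.46, SE 0.168, adjusted p = 0.275, edgeR). Eef1g, a subunit of the exchange complex of elongation factor eEF1A, gave 0.43 (SE 0.159, adjusted p = 0.283, edgeR) and Abce1, which recycles ribosomes, 0.72 (SE 0.257, adjusted p = 0.271, edgeR), the latter with overlap. Among the 9 genes that signal to the cap, 7 had a lower value, compared with 5850 of all 11974 genes tested. Of these 7, Rptor, Rps6kb2 and Pdcd4 turned to a higher value in at least 1 of the alternative fits. Mtor, the kinase that phosphorylates the 4E-BPs, measured 56.4, 76.2 and 63.5 CPM in Ctl MSC, against 52.4, 30.8 and 51.5 CPM in MSC-TPr, with every MSC-TPr library below (log2 fold change −0.54, SE 0.248, adjusted p = 0.369, edgeR). Rps6kb1 (log2 fold change −0.33) and Mknk2 (log2 fold change −0.45) also had every MSC-TPr library below. Mtor, Rps6kb1 and Mknk2 lie on chromosomes 4, 11 and 10. The tested genes there other than initiation factors had median log2 fold changes of −0.23, −0.07 and −0.07. Dhps and Abce1 lie on chromosome 8, where this median was 0.21. The part of these shifts in the values was not tested. Ppp1r15a, which directs the phosphatase to eIF2 under stress, had 92.8 CPM in Ctl MSC 1 and 343 to 507 CPM in the other libraries, with a log2 fold change of 0.35 (SE 0.553, adjusted p = 0.814, edgeR) that turned to −0.090 without Ctl MSC 1.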

How the data were processed

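RNA-seq libraries of polyadenylated RNA (stranded kit) from 3 Ctl MSC and 3 MSC-TPr samples were analysed. Per the submitters' processing notes, CASAVA 1.8.2, Trimmomatic 0.35 and TopHat2 2.1.0 were used with mm10. The authors deposited raw counts per gene, made by Htseq-count and not normalized. Its version and strand setting are not given in the sources used here. Rows that name no gene (unassigned and multiply aligned reads) were left out, so genes held 79.2% to 86.2% of the listed reads. The authors' own comparison used DESeq2.

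Counts were tested in R 4.3.3 with edgeR 4.0.16 (TMM, filterByExpr, quasi-likelihood test, group as the only term, Benjamini-Hochberg over 11974 genes). Genes were called at an adjusted p below 0.05 with a fold change of 0.5 or more on the log2 scale, in either direction. The SE is the log2 fold change divided by the square root of F. DESeq2 1.42.0, RLE normalization, filters of none or 10 counts, the replicate block, a cell division covariate and leaving out libraries were alternatives. Ratios were compared by exact permutation tests (scipy 1.17.1). Shares of 100-base words and exon lengths came from the GENCODE annotation of the mm10 assembly, where 21785 symbols of the table matched directly, 1276 by an older symbol and 359 not. Motifs were read from RefSeq promoter windows.

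Named with values of every library were genes called, genes without overlap that passed this fold, the 10 with the smallest p, the highest level of each role and a list of fixed genes. Other genes are given with their fold change, and any with further values were chosen after those had been seen. The members and lists were chosen with earlier results of these data known. The labels do not say whether same-numbered libraries pair. Such libraries deviated from their group means with correlations of −0.765, −0.594 and −0.604 across genes. They are of opposite cell division class, so these correlations cannot tell whether the numbers pair the samples. No library was a copy of another, but the libraries were not equally far apart. The chi-square per gene was 4.97 between Ctl MSC 2 and Ctl MSC 3, and 52.3 to 215.6 in every other pair. The labels do not say whether Ctl MSC 2 and Ctl MSC 3 came from separate cultures. Groups without overlap, and the fits without the libraries numbered 1, may therefore rest on fewer separate controls than libraries.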

Additional observations from a re-analysis of the deposited data

How the results depend on the processing

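Of the 52 tested genes, 51 had over 20 reads in each library, and depth limits the value of the other, Eif2c4 (3 to 83 reads). The common dispersion was 0.124. The counts of called genes moved most. Of the initiation factor genes, 4 were called with DESeq2, 6 with the cell division covariate, 15 with both libraries numbered 1 left out and 16 with DESeq2 on those 4 libraries, a setting chosen after seeing the data, against 0 in the reported test and 0 with RLE normalization, other filters, no fold threshold, the replicate block and each library left out. Of the 36 related genes, 1, 2, 10 and 10 were called under the same 4 settings, against 0. Of all genes, 51 were called in the reported test, 31 with at least 10 counts in every library, 683 with DESeq2, 1448 with the covariate, 4854 with both libraries numbered 1 left out (4565 with DESeq2), and 0 to 108 when 1 library was left out. The replicate block pairs libraries by number, though the labels do not say that the numbers pair. It called 0 of all genes. It left 4 initiation factor genes (7.69%) at an unadjusted p under 0.05, compared with 6.48% of all genes. The smallest edgeR adjusted p of these genes with the block was 0.674. The block changed the sign of none of the 52 initiation factor genes. In sums of the cap-binding inhibitors over Eif4e, the log2 difference of 0.11 was −0.18 with both libraries numbered 1 left out and −0.13 to 0.24 when 1 library was left out. With the median of its chromosome subtracted from each gene, a comparison added after seeing the data, the median log2 fold change was 0.18.

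Among the fits of single genes, 31 of the 52 initiation factor genes kept their sign under every alternative fit. Over all 36 tested related genes, 22 kept it and 14 turned. Among the 8 related genes given with values, 7 kept it. The other initiation factor genes, and the other related gene given with values, turned as follows. With both libraries numbered 1 left out, the log2 fold change was 0.10 for Eif2b3 (0.11 with DESeq2), 0.11 (0.12) for Eif2b5, −0.42 (−0.42) for Eif2c2, 0.088 (0.092) for Eif3c, −0.34 (−0.34) for Eif3f, 0.0021 (0.0062) for Eif3i, −0.062 (−0.057) for Eif4b, −0.20 (−0.19) for Eif4ebp2, −0.022 (−0.018) for Eif4g1, −0.070 (−0.066) for Eif4g2, −0.29 (−0.28) for Eif4g3, −0.0035 for Eif4h (edgeR only) and −0.26 (−0.26) for the related gene Ppp1r15a. With the cell division covariate it was 0.13 for Eif2c3, 0.0018 for Eif2d, 0.10 for Eif3a and −0.17 for Eif3e. With at least 10 counts in every library it was −0.0084 for Eif4g1. When 1 library was left out, the range was −0.066 to 0.19 for Eif1a, −0.20 to 0.0056 for Eif1b, −0.23 to 0.054 for Eif2b3, −0.25 to 0.011 for Eif2b5, −0.14 to 0.47 for Eif2c2, −0.31 to 0.11 for Eif2c3, −0.043 to 0.030 for Eif2d, −0.21 to 0.088 for Eif3a, −0.14 to 0.038 for Eif3c, −0.12 to 0.44 for Eif3e, −0.15 to 0.26 for Eif3f, −0.070 to 0.030 for Eif3h, −0.020 to 0.19 for Eif4a3, −0.0066 to 0.15 for Eif4b, −0.41 to 0.045 for Eif4e3, −0.093 to 0.20 for Eif4ebp2, −0.055 to 0.075 for Eif4g1, −0.045 to 0.068 for Eif4g2, −0.13 to 0.39 for Eif4g3, −0.016 to 0.14 for Eif4h and −0.090 to 0.65 for Ppp1r15a. The cause was not tested for any of these.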
